A study of Mus musculus with 21 samples.

Results

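Extraembryonic endoderm (XEN) libraries were compared with pluripotent libraries, gene by gene, and the genes whose values separate every XEN library from every pluripotent library are described. The comparison used 4 XEN libraries (CeXEN 1, CeXEN 2, eXEN 1 and eXEN 2) and 9 pluripotent libraries (ESC 1, ESC 2 and the CiPSC lines C1 to C3, G1, G3, N4 and N6), of 21 in the series, which follows chemical reprogramming of mouse fibroblasts. Of 43436 gene IDs, 15079 had an FPKM (a fragment count scaled by transcript length and library size) of at least 1 in 2 or more of the 13 libraries and were kept. CeXEN cells were derived from embryos of embryonic day 3.5 in the medium of the first reprogramming stage with the compounds VC6TFAE and 20 ng/ml bFGF. eXEN cells are a single established line obtained as a gift. eXEN 1 was grown in the stage 1 medium with VC6TF and 20 ng/ml bFGF, and eXEN 2 in the traditional XEN medium, so the 2 eXEN libraries differ in medium. ESC are embryonic stem cells from embryos of embryonic day 3.5, and each CiPSC library is 1 chemically induced pluripotent stem cell line. All XEN libraries are wild-type ICR. The 7 CiPSC lines and ESC 1 carry C57BL/6J-Tg(GOFGFP)11Imeg/RbrcxICR, and ESC 2 is C57BL/6 (B6)N, so strain and cell class cannot be told apart. CeXEN 1, CeXEN 2 and eXEN 1 grew in stage 1 medium with compounds and bFGF, and the labels list no bFGF for the pluripotent libraries. Culture medium and cell class therefore cannot be fully told apart either, also for the signalling and chromatin genes below. Each CiPSC library is a separate line, the ESC libraries differ in strain and the eXEN libraries in medium. For CeXEN the labels do not say whether the 2 libraries are separate cultures. The p-values measure the spread between these libraries, which mixes line, strain and medium and may be technical in part. Both eXEN libraries are of 1 line, so they do not stand for 2 separate XEN lines. The linear model (limma) used below pools that spread over both classes, with 9 pluripotent libraries against 4 XEN libraries. Its p-values thus rest mostly on the spread of the pluripotent libraries and can understate the spread within XEN.

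In the mouse blastocyst the inner cell mass gives rise to the epiblast, from which embryonic stem cells are derived, and to the primitive endoderm, from which XEN cells are derived. Primitive endoderm forms visceral endoderm, an absorptive epithelium that feeds the embryo, and parietal endoderm, single cells that secrete the thick basement membrane named after Reichert. GATA and SOX factors hold the endoderm state, while Pou5f1, Nanog, Sox2 and Esrrb hold the pluripotent one, and FGF4 made by epiblast cells drives their neighbours towards endoderm.

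The 2 classes formed 2 groups of libraries. They correlated across the kept genes at 0.878 to 0.949 within XEN, at 0.923 to 0.979 within the pluripotent class and at 0.745 to 0.814 between the classes (genes are not independent replicates). The first principal component held 61.04% of the variance and placed the XEN libraries at -120.5 to -102.6 and the pluripotent libraries at 43.0 to 55.7. XEN libraries had fewer genes at FPKM 1 or more, 11662 ± 512 (SD, n = 4) against 13172 ± 244 (SD, n = 9) in an exact 2-sided permutation test (p = 0.001399, the smallest that 715 regroupings can give). Their 100 highest genes held 35.3% ± 0.94 (SD, n = 4) of all FPKM against 31.8% ± 0.95 (SD, n = 9), with the same exact permutation p = 0.001399. Both p-values are 0.001399 after adjustment over these 2 tests. Read counts are not given with FPKM, and from the value of a single fragment the depth ranged from 0.396 times (CiPSC C3) to 1.59 times (CiPSC N4) that of ESC 1. The Y-linked genes Ddx3y, Eif2s3y and Kdm5d were listed at 0 in CeXEN 1 and CiPSC C1 and above 0 in the other libraries. The 2 CeXEN libraries therefore differ in their Y-linked expression. Xist, the RNA that silences an X chromosome in female cells, stood at 5.74 and 8.41 FPKM in the 2 CeXEN libraries, at 0.00347 and 0.00330 FPKM in the eXEN libraries and at 0.107 to 0.275 FPKM in the pluripotent libraries, so CeXEN 2 holds both Xist and Y-linked RNA. Without the X and Y chromosomes the separated genes described next numbered 1291 higher and 2481 lower in XEN.

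A gene was taken as separated when 2 rules held in the same direction. Under the first rule, all 4 XEN libraries lay on the same side of all 9 pluripotent libraries, which held for 1844 genes with XEN higher (12.2% of the 15079) and 3957 genes with XEN lower (26.2%). These counts were 2590 and 2840 after quantile normalization and 2482 and 3320 under median-of-ratios scaling. Under the second, limma called the gene at an adjusted p under 0.05 and a difference of at least 1 on the log2(FPKM + 1) scale, which held for 1752 genes with XEN higher (11.6%) and 3052 with XEN lower (20.2%). The calls were 2299 and 2157 after quantile normalization and 2192 and 2529 under median-of-ratios scaling. Both rules held for 1349 genes with XEN higher (8.95%) and 2571 genes with XEN lower (17.1%), and these 2 shares are the background for every list below. The lists were chosen with earlier results of these data known. Their shares therefore describe the chosen members and are no independent support for a group difference. The median gene differed by -0.26, that is, it was lower in XEN. Quantile normalization put the median at -0.03 and gave 1849 separated genes with XEN higher and 1777 with XEN lower, and median-of-ratios scaling put it at -0.09 and gave 1743 and 2122. The excess of genes lower in XEN therefore held as deposited and under median-of-ratios scaling but turned to a small excess of higher genes after quantile normalization. The fewer genes detected and the larger share of the 100 highest genes in XEN move with these counts, and their part in them was not tested.

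The 2 sets of separated genes differed in their levels as deposited. Genes higher in XEN had a median class mean of 27.7 FPKM in XEN and 5.24 FPKM in pluripotent cells, so most were also present in the pluripotent libraries. Genes lower in XEN had a median of 9.52 FPKM in pluripotent cells and 0.727 FPKM in XEN, and 1371 of them (53.3%) had an XEN mean under 1 FPKM, against 287 (21.3%) of the genes higher in XEN with a pluripotent mean under 1. The nearest libraries of the classes were at least 1 log2 unit apart for 478 genes higher in XEN and 854 lower, at least 3 units apart for 67 and 119, and at least 5 units apart for 17 and 18. Keeping only genes with FPKM of at least 5 in 2 libraries left 1227 separated as higher and 1855 as lower. Most separated genes code for proteins, 1234 higher and 2310 lower of 12782 tested. The share of genes separated as higher ran from 6.5% on chromosome 7 to 11.6% on chromosome 3. Just inside the rule that groups do not overlap were Abhd6, with 9.757 FPKM as its lowest XEN and 9.751 as its highest pluripotent library, and Trmt61a, with 10.42 as its highest XEN and 10.43 as its lowest pluripotent library. Just outside were Pam (lowest XEN 6.273, highest pluripotent 6.284) and Prmt5 (highest XEN 76.54, lowest pluripotent 76.5).

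**Figure D1:**
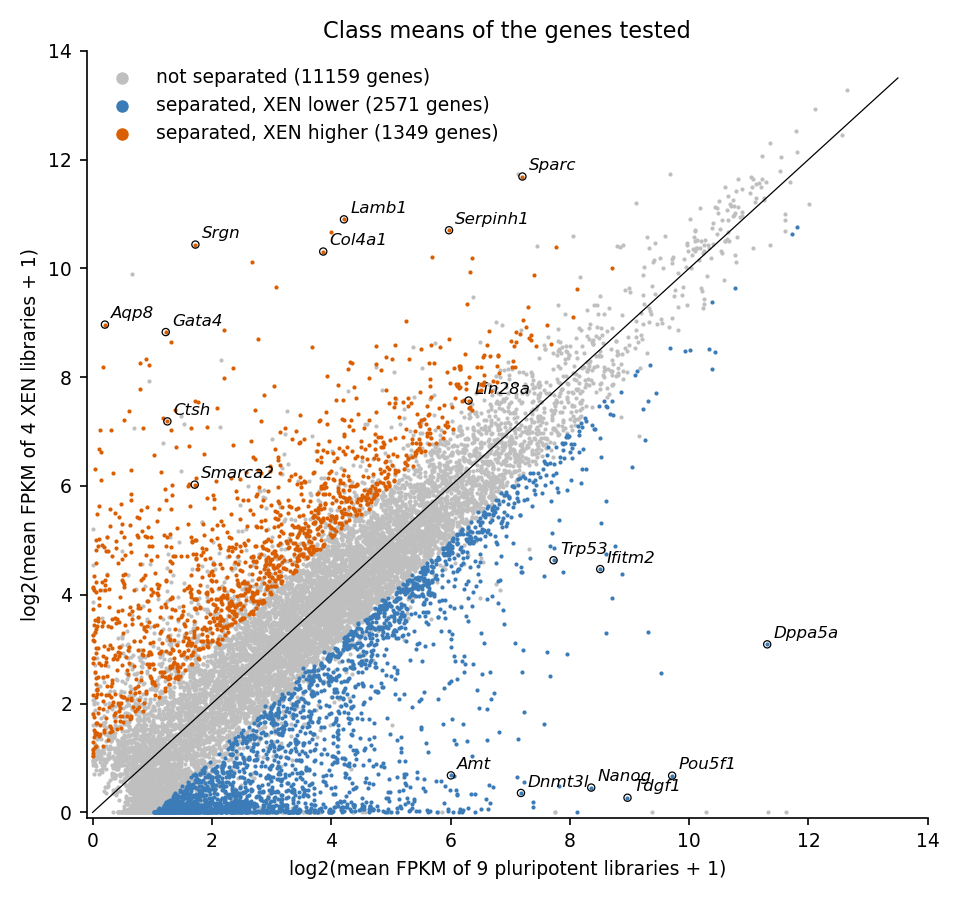
Each point is 1 of the 15079 genes, placed at log2(mean FPKM + 1) of the 9 pluripotent libraries (x axis) and of the 4 XEN libraries (y axis). The 1349 orange genes are separated with XEN higher and lie above the line of equal levels, the 2571 blue genes are separated with XEN lower and crowd along the bottom where the XEN mean is near 0.

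**Figure D2:**
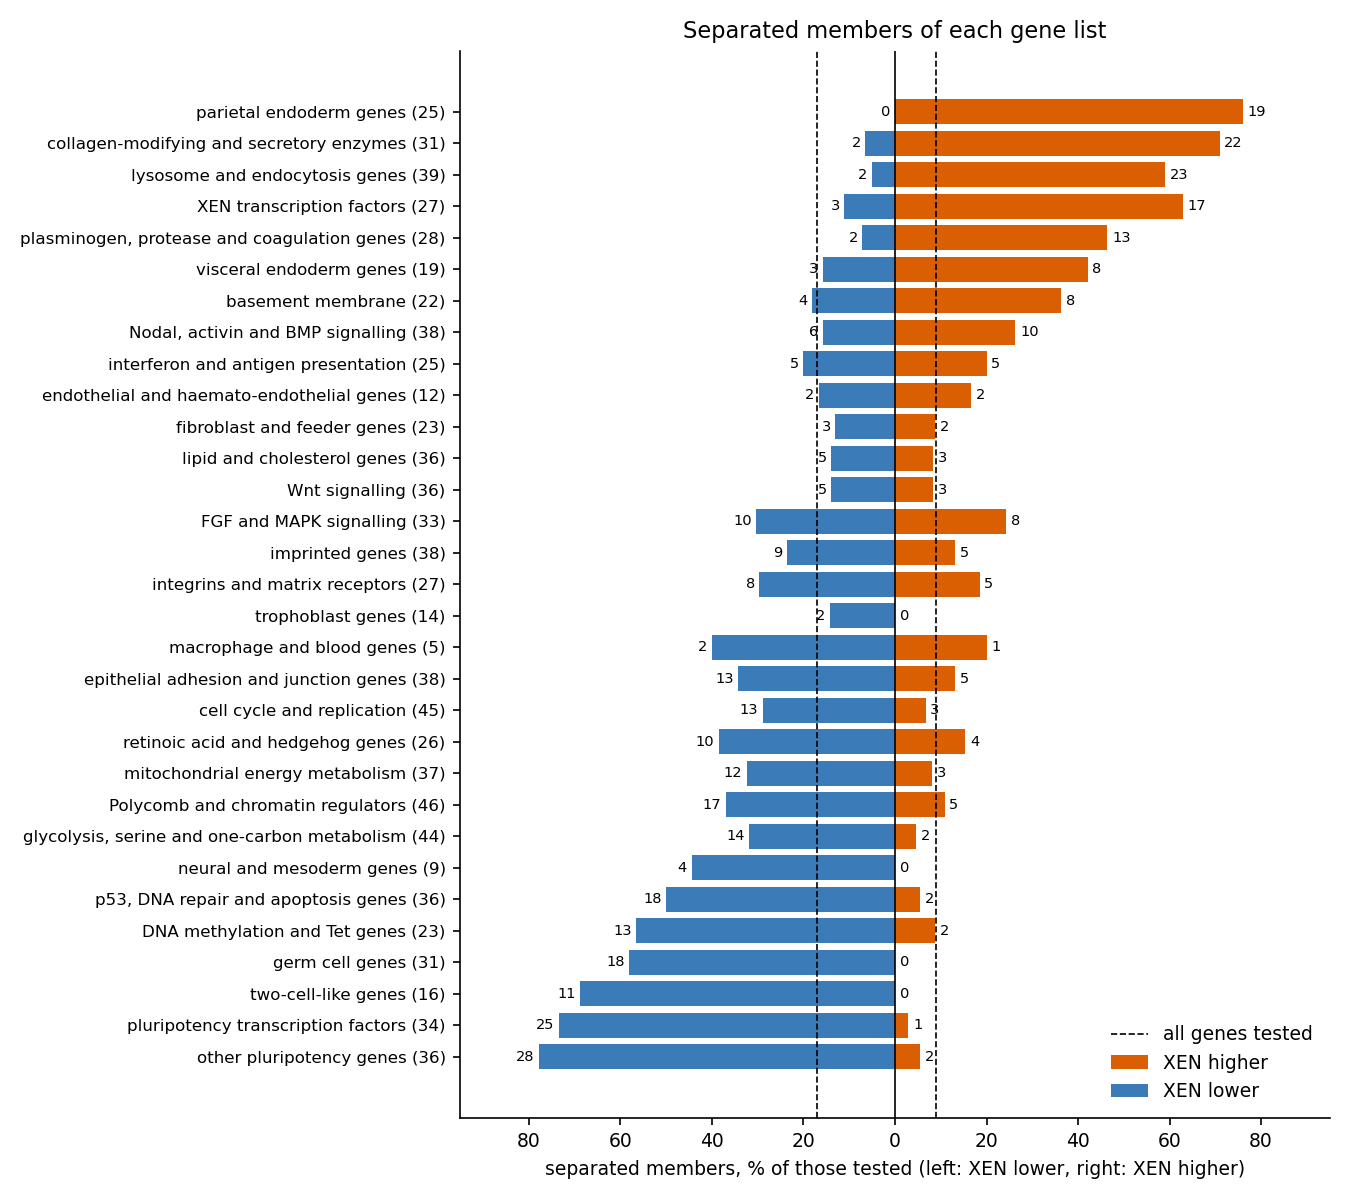
Bars give, for each of 31 gene lists, the share of tested members separated with XEN higher (right) and with XEN lower (left), with the number of members at the bar's end and the number tested after the list's name. Dashed lines mark the shares over all genes tested, 8.95% and 17.1%: the parietal endoderm, secretory, XEN factor and lysosome lists lie far to the right, the 2 pluripotency lists far to the left. The lists were chosen with earlier results of these data known.

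The transcription factors of the endoderm state stood in a narrow band in all 4 XEN libraries and near 0 in the pluripotent ones. XEN values are given in the order CeXEN 1, CeXEN 2, eXEN 1 and eXEN 2 throughout. Gata4 (ENSMUSG00000021944, chr14:63198922-63271692 in mm10), which opens the endoderm programme, stood at 441, 431, 424 and 519 FPKM in XEN and at 0.708 to 2.66 FPKM (median 1.14) in pluripotent cells. All 4 XEN libraries lay within a small range and far above the 9 others, and the log2 difference was 7.65 ± 0.20 (SE, adjusted p = 1.47e-12). Foxa2, a forkhead factor of definitive and extraembryonic endoderm, stood at 176, 123, 94.4 and 124 FPKM against 0 to 0.201 FPKM (median 0.11). Sox7, expressed in parietal endoderm, stood at 149.6, 125, 177 and 138 FPKM against 0.122 to 0.699 FPKM (median 0.489). For both, no pluripotent library reached 1 FPKM, and the differences were 6.87 ± 0.15 (SE, adjusted p = 3.19e-13) for Foxa2 and 6.68 ± 0.15 (SE, adjusted p = 3.19e-13) for Sox7. Sox17, which with Gata6 directs primitive endoderm, was less even, with 498, 351, 148 and 198 FPKM in XEN against 0.369 to 1.89 FPKM (median 0.773), so that both CeXEN libraries were above both eXEN libraries while the classes stayed apart at 7.16 ± 0.29 (SE, adjusted p = 1.18e-10). Gata6 stood at 208, 109, 112 and 176 FPKM against 0.346 to 3.79 FPKM (median 1.11), with its highest pluripotent value in CiPSC C3, and differed by 6.09 ± 0.28 (SE, adjusted p = 4.9e-10).

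Of 27 tested members of the XEN factor list, 17 were separated with XEN higher and 3 with XEN lower, with a median log2 difference of 2.46 beside -0.26 over all genes. The 3 lower members were Foxh1, the nuclear partner of Nodal signalling, Tfap2c, a factor of trophoblast and germ cells, and Otx2, a factor of epiblast and anterior visceral endoderm. Otx2 was listed at 0 in all 4 XEN libraries and at 0.722 to 17.6 FPKM (median 3.58) in pluripotent cells. Foxh1 stood at 0 to 0.163 FPKM in XEN and 13.2 to 44.5 FPKM in pluripotent cells. Tfap2c stood at 0.0399, 2.5, 0.0229 and 0.0978 FPKM against 27.9 to 74.6 FPKM (median 39).

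**Figure D3:**
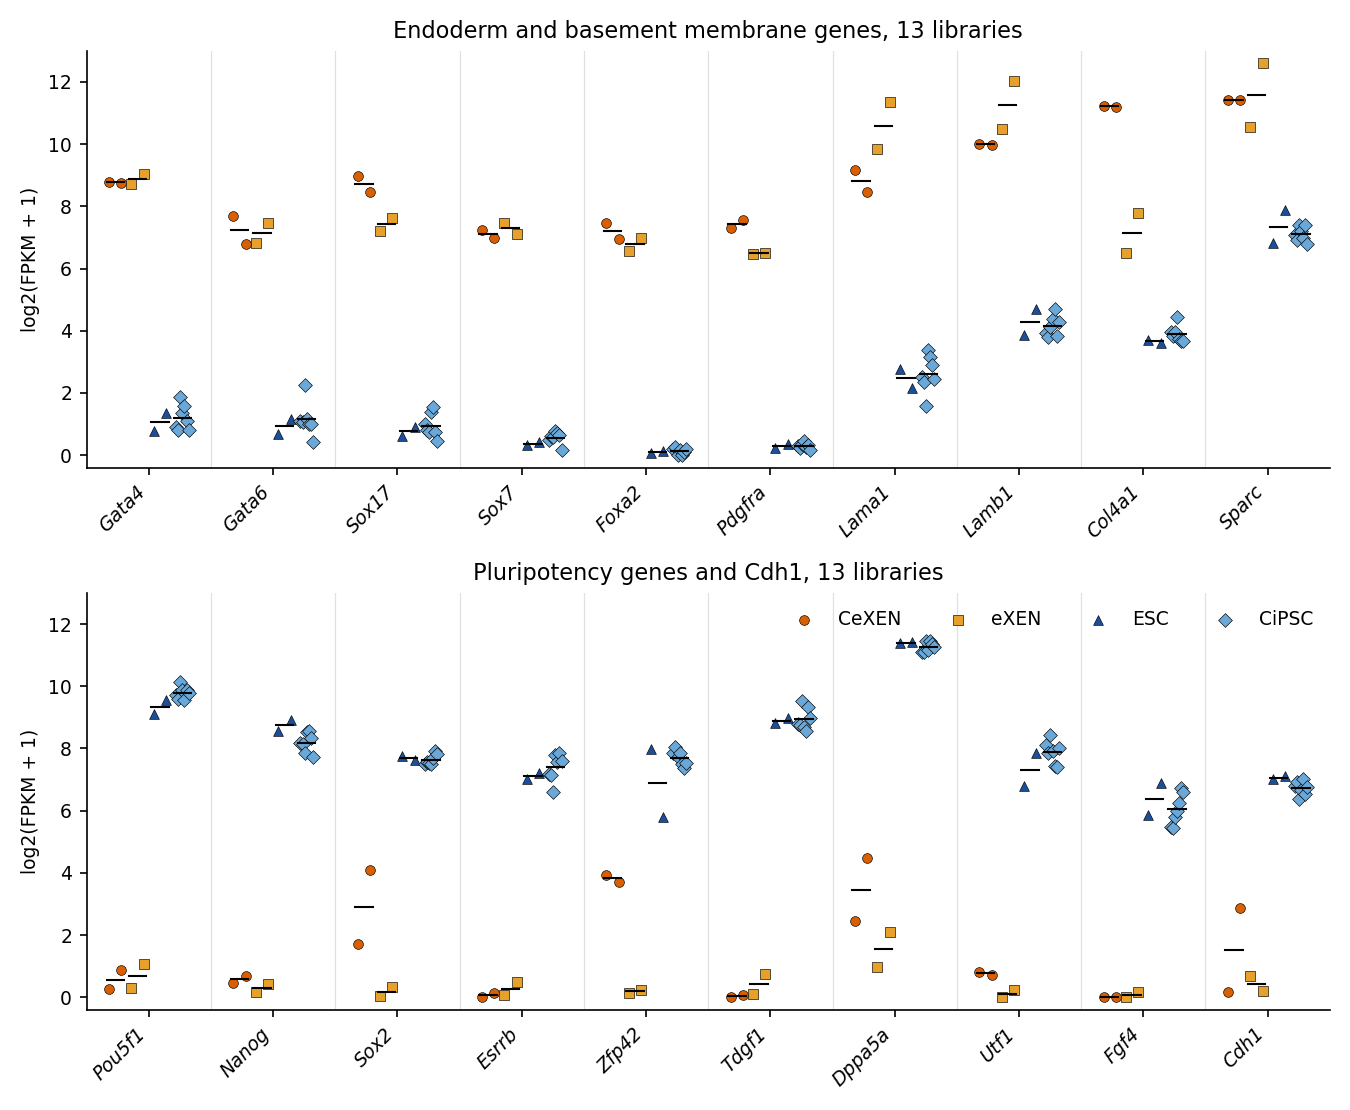
Each point is 1 library at log2(FPKM + 1), with the 2 CeXEN, 2 eXEN, 2 ESC and 7 CiPSC libraries side by side for each gene and a black bar at each group's mean. The upper panel shows endoderm and basement membrane genes, all higher in the 4 XEN libraries, and the lower panel shows pluripotency genes and Cdh1, all lower in them, with Zfp42 and Sox2 reaching intermediate levels in CeXEN.

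Several core genes of the pluripotency network, among them Pou5f1, Nanog and Esrrb, were at or near 0 in XEN. Pou5f1 (ENSMUSG00000024406, chr17:35506018-35510772 in mm10), the POU factor at the core of pluripotency, stood at 0.216, 0.821, 0.235 and 1.12 FPKM in XEN and 555 to 1127 FPKM (median 839) in pluripotent cells, a log2 difference of -9.06 ± 0.18 (SE, adjusted p = 3.19e-13). Tdgf1, a co-receptor of Nodal, stood at 0, 0.0532, 0.0699 and 0.698 FPKM against 380.3 to 732 FPKM (median 450.3) and differed by -8.70 ± 0.18 (SE, adjusted p = 3.19e-13). These are among the widest gaps of all genes, and no XEN library exceeded 1.12 FPKM for either gene. Nanog stood at 0.375, 0.627, 0.134 and 0.351 FPKM against 209 to 487 FPKM (median 322). Esrrb, an orphan nuclear receptor, stood at 0, 0.0945, 0.0518 and 0.398 FPKM against 96.5 to 229 FPKM (median 146). Utf1, a chromatin factor of pluripotent cells, stood at 0.779, 0.63, 0 and 0.166 FPKM against 109 to 344 FPKM (median 229). Dppa5a, an RNA-binding protein of pluripotent cells, stood at 4.47, 21.3, 0.973 and 3.3 FPKM against 2209 to 2801 FPKM (median 2631). Fgf4, the ligand that instructs primitive endoderm, stood at 0, 0, 0 and 0.122 FPKM against 42.9 to 118 FPKM (median 63.1). Neither gene's classes overlapped, and the log2 differences were -8.80 and -6.07. Alpl, the tissue-nonspecific alkaline phosphatase used to stain pluripotent colonies, stood at 0.139, 1.6, 0.164 and 0.407 FPKM against 111 to 149 FPKM (median 142). Among genes with the widest gaps but no place on a pluripotency list were Stmn2, a microtubule regulator known from neurons (0.0805 to 0.184 FPKM in XEN, 67.7 to 142 FPKM in pluripotent cells), Rbmxl2, an RNA-binding protein of male germ cells (0 to 0.18 against 58.6 to 122 FPKM), and the septin Sept1 (0.312 to 0.817 against 67.2 to 224 FPKM).

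Not every gene of the pluripotency lists followed this pattern. Of 34 tested pluripotency transcription factors 25 were separated with XEN lower and 1 with XEN higher (median -3.63), and of 36 other pluripotency genes 28 were lower and 2 higher (median -3.81). The higher ones were Klf5, Lin28a and Bend4, of which Klf5 and Bend4 were no longer separated with eXEN only or without CeXEN 1. Klf5 was also lost without CiPSC C3, and Bend4 without ESC 2, without CiPSC N6 or against CiPSC only. Klf5, a Krüppel-like factor also used by epithelia, stood at 305, 232, 157 and 164 FPKM in XEN against 44.8 to 138 FPKM (median 107). Lin28a, an RNA-binding repressor of let-7 maturation, stood at 165, 166, 204 and 221 FPKM against 46 to 113 FPKM (median 76). Bend4 stood at 50.3, 44.3, 42.9 and 38.5 FPKM against 14.2 to 27.2 FPKM (median 21.5). Their nearest libraries were less than 1 log2 unit apart, and the differences were 1.09, 1.31 and 1.02. Klf4, a reprogramming factor, overlapped between the classes with 197, 204, 112 and 152 FPKM in XEN and 40.2 to 130.5 FPKM (median 79.6) in pluripotent cells, the XEN libraries standing in the upper part of the pluripotent range or above it. Zfp42 (Rex1), a zinc finger protein widely used as a marker of naive pluripotency, varied within the XEN class. It stood at 14.4, 12.2, 0.113 and 0.179 FPKM in XEN and at 54.5 to 261 FPKM (median 209) in pluripotent cells, where ESC 2 was lowest, so that the CeXEN libraries lay between eXEN and the pluripotent libraries. The bases before its start are shown because they hold the only octamer among 25 pluripotency factor genes with a listed promoter window. The octamer ATGCAAAT, the sequence that POU factors such as Pou5f1 bind, was sought on both strands in the 250 bases before the first RefSeq start of each gene (build GRCm38.p6), and a match in capitals is a description of the letters only. The window of Zfp42 is chr8:43307010-43307259 on the minus strand, and the match begins 186 bases before the start.
Zfp42: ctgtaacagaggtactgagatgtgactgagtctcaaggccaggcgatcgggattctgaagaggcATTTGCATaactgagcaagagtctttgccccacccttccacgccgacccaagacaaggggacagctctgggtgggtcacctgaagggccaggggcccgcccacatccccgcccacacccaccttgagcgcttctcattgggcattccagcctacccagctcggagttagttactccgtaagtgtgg
The octamer was in 1.3% of the 9948 windows of tested genes, in 1.52% of those of genes separated with XEN lower and in 1.12% of those with XEN higher, so it was about as frequent in all 3 sets.

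Basement membrane genes divided by chain. Laminin is a trimer of an alpha, a beta and a gamma chain, and the chains of laminin-111, the laminin of Reichert's membrane, were high in XEN cells. Lama1 (ENSMUSG00000032796, chr17:67697265-67822645 in mm10) stood at 578, 352, 921 and 2587 FPKM in XEN and 1.96 to 9.35 FPKM (median 4.75) in pluripotent cells, a log2 difference of 7.12 ± 0.43 (SE, adjusted p = 6.99e-09). Lamb1 stood at 1033, 1003, 1426 and 4184 FPKM against 12.9 to 25 FPKM (median 16.3), a difference of 6.45 ± 0.32 (SE, adjusted p = 9.87e-10). The gamma chain Lamc1 differed by 3.61 ± 0.29 (SE, adjusted p = 1.25e-07). In Lama1 and Lamb1 eXEN 2, the library in traditional XEN medium, was highest, and the classes did not overlap. Sparc, a collagen-binding matrix protein, stood at 2726, 2748, 1512 and 6209.6 FPKM against 109.6 to 236 FPKM (median 134). Tinagl1, a basement membrane glycoprotein, stood at 2674, 2001, 709.5 and 1114 FPKM against 3.21 to 31.5 FPKM (median 12). Col4a1, the main collagen IV chain, stood at 2399.9, 2364, 88.6 and 218 FPKM in XEN and 11.3 to 20.7 FPKM (median 12.3) in pluripotent cells. It was thus separated by 5.33 ± 0.68 (SE, adjusted p = 1.3e-05), but the CeXEN libraries were far above the eXEN libraries.

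Other genes of the list went the opposite way or overlapped. Lama3, the alpha chain of epithelial laminin-332, stood at 0, 0, 0.0568 and 0.0216 FPKM in XEN and 4.95 to 10.9 FPKM (median 6.4) in pluripotent cells. Col18a1, the collagen that yields endostatin, stood at 0.415, 2.8, 2.38 and 0.107 FPKM against 31.3 to 54.8 FPKM (median 50.2). Both were lower in every XEN library, with differences of -2.92 and -4.49. The nidogens, which link laminin to collagen IV, overlapped between the classes. Nid1 stood at 55.1, 42, 50.3 and 713 FPKM in XEN against 16.6 to 44.9 FPKM (median 24). Nid2 stood at 98.3, 68.7, 125 and 431 FPKM against 65.3 to 111 FPKM (median 77.4). eXEN 2 stood far above the pluripotent range for both while the other XEN libraries lay within it or just above it. Over the whole basement membrane list 8 of 22 tested members were separated with XEN higher and 4 with XEN lower (median 1.06), and 9 and 2 after quantile normalization.

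Enzymes that fold and modify collagen were higher in XEN together with it. Of 31 tested collagen-modifying and secretory genes 22 were separated with XEN higher and 2 with XEN lower (median 1.93), and after quantile normalization 22 and 0. Serpinh1, the collagen chaperone Hsp47, stood at 2061, 2061, 1168 and 1364 FPKM in XEN and 44.6 to 95.3 FPKM (median 55.8) in pluripotent cells, a log2 difference of 4.72 ± 0.21 (SE, adjusted p = 3.02e-10). P4ha2, a prolyl hydroxylase subunit that stabilises the collagen helix, stood at 403, 317, 388 and 387 FPKM against 6.06 to 37.9 FPKM (median 8.85), the highest pluripotent value being CiPSC C3. Pxdn, the peroxidase that crosslinks collagen IV, stood at 88.3, 91.6, 112 and 135 FPKM against 2.93 to 5.8 FPKM (median 4.02). For each of the 3 the XEN libraries lay close to each other and the classes did not overlap. A pair of chaperones of the endoplasmic reticulum, named as members that were not separated, were Hspa5 and Hsp90b1. Hspa5 (BiP) stood at 438, 522, 808 and 789.9 FPKM against 291 to 444 FPKM (median 345), with classes that overlapped. Hsp90b1 stood at 317, 354, 485 and 453 FPKM against 170.2 to 284 FPKM (median 231), with classes apart but a difference of 0.81 ± 0.15 (SE, adjusted p = 0.000298), below the threshold of 1. Hspa5 and Hsp90b1 were both separated with XEN higher under median-of-ratios scaling.

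Kdelr3, a receptor that returns chaperones to the endoplasmic reticulum, and Sec24d, a coat protein of vesicles that carry procollagen, are shown because they are the 2 of 23 listed genes of this group whose window holds TGACGTGG, a sequence bound by factors of the unfolded protein response such as Xbp1. They were chosen after their values were seen and differed by 4.18 ± 0.29 (SE, adjusted p = 3.65e-08) and 2.32 ± 0.16 (SE, adjusted p = 3.17e-08) on the log2 scale. The sequences are the 250 bases before the RefSeq start in GRCm38.p6, chr15:79516158-79516407 (plus strand) and chr3:123267246-123267495 (plus strand), with the match on either strand in capitals, beginning 30 and 26 bases before the start.
Kdelr3: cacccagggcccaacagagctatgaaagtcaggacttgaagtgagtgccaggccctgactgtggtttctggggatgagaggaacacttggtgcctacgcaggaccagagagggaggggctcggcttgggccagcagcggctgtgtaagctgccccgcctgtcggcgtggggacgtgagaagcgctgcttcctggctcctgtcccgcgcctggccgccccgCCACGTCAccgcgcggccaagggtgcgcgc
Sec24d: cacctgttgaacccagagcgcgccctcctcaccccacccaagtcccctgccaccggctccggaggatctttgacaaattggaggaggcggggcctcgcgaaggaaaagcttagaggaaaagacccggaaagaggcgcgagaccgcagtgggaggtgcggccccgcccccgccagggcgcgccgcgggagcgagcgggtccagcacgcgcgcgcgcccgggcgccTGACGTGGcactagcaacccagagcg
Over all 9948 windows 0.764% held this sequence, as did 1.33% of the windows of genes separated with XEN higher and 0.507% of those with XEN lower.

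Genes of parietal endoderm were higher in XEN as a group, and those of visceral endoderm were more often higher than all genes but less uniformly. Of 25 tested parietal endoderm genes 19 (76.0%) were separated with XEN higher and 0 with XEN lower (median 4.24), beside 8.95% and 17.1% of all genes. In limma 1 was lower, both as a call and at an unadjusted p under 0.05. Aqp8 (ENSMUSG00000030762, chr7:123462294-123468003 in mm10), a water and peroxide channel, had the largest log2 difference of all separated genes higher in XEN, 8.69 ± 0.22 (SE, adjusted p = 1.29e-12), with 693, 460.4, 264 and 579 FPKM in XEN and 0 to 0.727 FPKM (median 0.0785) in pluripotent cells. Pth1r, the receptor of parathyroid hormone-related protein that promotes parietal endoderm, stood at 469.8, 466, 329 and 334 FPKM against 0.559 to 3.03 FPKM (median 1.05). Pdgfra, the surface receptor used to sort primitive endoderm, stood at 157, 187, 88.1 and 89.2 FPKM against 0.119 to 0.375 FPKM (median 0.226). In each of these 3 genes the lowest XEN library lay more than 5 log2 units above the highest pluripotent one. Srgn, the core protein of a secreted proteoglycan, stood at 1885, 2563, 512 and 582 FPKM against 0.468 to 6.78 FPKM (median 1.79) and was higher in CeXEN than in eXEN. Fst, an inhibitor of activin, stood at 104, 104, 63.3 and 259 FPKM against 0.414 to 1.51 FPKM (median 0.788), with eXEN 2 highest.

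Of 19 tested visceral endoderm genes 8 (42.1%) were separated with XEN higher and 3 (15.8%) with XEN lower (median 1.07), beside 8.95% and 17.1% of all genes. After quantile normalization the counts were 10 and 3, and 8 further genes of the list were below the filter. Ihh, the hedgehog ligand of visceral endoderm, stood at 143, 194, 39.9 and 13.6 FPKM in XEN and 0 to 0.28 FPKM (median 0.0571) in pluripotent cells. Bmp2, a ligand that patterns the embryo from visceral endoderm, stood at 25.3, 14, 6.61 and 25.1 FPKM against 0 to 0.244 FPKM (median 0.102). The apolipoproteins, secreted by mature visceral endoderm, went the other way or overlapped. Apoa2 and Apoc2 were listed at 0 in all 4 XEN libraries and stood at 8.15 to 19.9 and 3.56 to 21.4 FPKM in pluripotent cells. Apoe overlapped at 619, 2801, 284 and 134 FPKM against 363 to 1807 FPKM (median 977).

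Several genes of the widest gaps lie outside these lists. Spock1, a matrix proteoglycan, stood at 162, 151, 118 and 231 FPKM in XEN and 0.171 to 0.831 FPKM (median 0.566) in pluripotent cells. Hkdc1, a hexokinase-like enzyme, stood at 92.7, 107, 60.6 and 147 FPKM against 0 to 0.136 FPKM (median 0.0852). Both were below 1 FPKM in every pluripotent library, and eXEN 2 was highest and eXEN 1 lowest in each.

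Of 28 tested proteases, their inhibitors and coagulation genes 13 were separated with XEN higher and 2 with XEN lower, and 13 were not separated (median 1.60). F3, the tissue factor that starts coagulation, stood at 511, 298, 85.8 and 762 FPKM in XEN and 2.44 to 13.1 FPKM (median 5.06) in pluripotent cells. Thbd, thrombomodulin, which restrains coagulation, stood at 78.7, 40, 13.4 and 55.2 FPKM against 0.0639 to 0.382 FPKM (median 0.233). Adamts9, a matrix metalloprotease, stood at 72.1, 53.7, 29.5 and 125 FPKM against 1.19 to 4.34 FPKM (median 2.32). For all 3 genes eXEN 1 was the lowest XEN library and still above every pluripotent library.

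Lysosomal genes were higher in XEN as a group. Of 39 tested lysosome and endocytosis genes 23 were separated with XEN higher and 2 with XEN lower, 59.0% and 5.1% of the list beside 8.95% and 17.1% of all genes (median 1.56). Ctsh (ENSMUSG00000032359, chr9:90054152-90076089 in mm10), a cysteine protease, stood at 67.3, 182, 176 and 154 FPKM in XEN and 0.465 to 2.53 FPKM (median 1.21) in pluripotent cells, a log2 difference of 5.88 ± 0.27 (SE, adjusted p = 5.12e-10). Naglu, which removes N-acetylglucosamine from heparan sulfate, stood at 85.4, 91.3, 45 and 33.8 FPKM against 0.577 to 3.94 FPKM (median 1.11). Lgmn, the protease legumain, stood at 198, 163, 207 and 548 FPKM against 21.2 to 31.1 FPKM (median 29.4). The classes were apart for all 3, with CeXEN higher than eXEN for Naglu and eXEN 2 highest for Lgmn. The 2 lower members were Manba and Lrp1. Manba, a lysosomal mannosidase that is also on a pluripotency list, stood at 13.9, 22.3, 19.7 and 13.1 FPKM against 48.2 to 99.9 FPKM (median 74.4). Lrp1, an endocytic receptor, stood at 0.858, 0.957, 1.62 and 1.39 FPKM against 13.3 to 28.3 FPKM (median 19.8). Psap, the precursor of the saposins, overlapped at 309, 400.2, 196 and 392 FPKM against 111 to 203 FPKM (median 189), where CiPSC N6 was the lowest library, and became separated under median-of-ratios scaling.

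Promoter windows of 2 lysosomal genes are shown because the list as a whole often holds CACGTG, the E-box read by the lysosomal regulator Tfeb and by many other factors. CACGTG was in 11 of 34 windows of the list (32.4%) and in 8.56% of all 9948 windows, in 9.2% of those of genes separated with XEN higher and in 7.44% of those with XEN lower. It was in 0 of 23 windows of the secretory list. The share in all genes higher in XEN was thus close to the share in all genes. The window of Naglu (chr11:101069844-101070093, plus strand, GRCm38.p6) has 1 match, 73 bases before the start, and that of Lamp1, a membrane protein of lysosomes (chr8:13158911-13159160, plus strand), has 4, beginning 61, 45, 28 and 15 bases before the start. Lamp1 was chosen after its sequence was seen and differed by 1.62 ± 0.11 (SE, adjusted p = 1.76e-08).
Naglu: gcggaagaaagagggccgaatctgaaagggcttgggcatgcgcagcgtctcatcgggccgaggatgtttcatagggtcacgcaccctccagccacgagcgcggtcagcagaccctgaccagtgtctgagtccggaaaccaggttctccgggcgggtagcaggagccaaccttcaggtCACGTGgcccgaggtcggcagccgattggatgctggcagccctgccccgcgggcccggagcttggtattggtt
Lamp1: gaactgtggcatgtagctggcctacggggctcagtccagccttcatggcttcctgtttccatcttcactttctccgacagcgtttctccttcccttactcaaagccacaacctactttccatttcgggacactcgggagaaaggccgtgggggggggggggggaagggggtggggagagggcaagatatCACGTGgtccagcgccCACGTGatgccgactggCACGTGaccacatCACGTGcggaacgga

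Ligands, receptors and targets of FGF signalling differed in both directions. Of 33 tested FGF and MAPK genes 8 were separated with XEN higher and 10 with XEN lower, and after quantile normalization 10 and 6, so the direction of the list depends on the scaling. Among ligands, Fgf4 was lower as given above, and Fgf3 was higher in XEN at 49.8, 44.2, 16.1 and 20 FPKM against 0.121 to 2.25 FPKM (median 1). Among receptors, Fgfr4 stood at 48.6, 46.2, 55.9 and 40.9 FPKM in XEN against 0.362 to 1.52 FPKM (median 0.912), nearly the same in all 4 XEN libraries and apart by 4.71 ± 0.18 (SE, adjusted p = 6.05e-11). The ETS factors Etv4 and Etv5, which FGF signalling induces, were lower in XEN. Etv5 stood at 6.12, 2.63, 1.21 and 3.09 FPKM against 82.1 to 126 FPKM (median 103). Etv4 stood at 1.95, 1.17, 2.32 and 7.56 FPKM against 27.5 to 91.3 FPKM (median 50.3). Kit, a receptor tyrosine kinase, overlapped at 144, 165, 51.5 and 66.2 FPKM against 23.7 to 53.2 FPKM (median 35.9), with both CeXEN libraries and eXEN 2 above the pluripotent range.

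In the Nodal, activin and BMP list 10 of 38 tested members were separated with XEN higher and 6 with XEN lower, and the median was -0.32 as deposited and 0.33 after quantile normalization. The 6 lower members included the co-receptor Tdgf1, described above, and the ligands Nodal and Gdf3. Nodal stood at 0, 0.0484, 0 and 0 FPKM in XEN and 27.2 to 46.4 FPKM (median 40.6) in pluripotent cells. Gdf3, another ligand of the branch, stood at 0, 0.0953, 0 and 0 FPKM against 30.4 to 53.7 FPKM (median 42.7). Both were listed at 0 in 3 of 4 XEN libraries. Secreted inhibitors were among the higher members, with Fst as above and Nog, which binds BMPs, at 133, 117, 22.9 and 25.1 FPKM against 0.0906 to 0.651 FPKM (median 0.169). All XEN libraries exceeded all pluripotent ones for Nog, and the CeXEN libraries exceeded the eXEN libraries.

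Of 36 tested Wnt genes 3 were separated with XEN higher and 5 with XEN lower, shares of 8.3% and 13.9% that lie near those of all genes, and 5 and 4 after quantile normalization. Wnt11, a ligand of the non-canonical branch, was a large exception at 369.8, 487, 254 and 183 FPKM in XEN against 0.237 to 2.26 FPKM (median 0.698), a difference of 7.41 ± 0.27 (SE, adjusted p = 4.56e-11). Frzb, a secreted Wnt antagonist that is not on the list, stood at 97.7, 109, 57.4 and 50.1 FPKM against 0 to 0.0985 FPKM (median 0). Tcf7l2, a transcription factor of the pathway, stood at 97.1, 93.8, 41.9 and 72.3 FPKM against 2.4 to 10.6 FPKM (median 6.69). Cdx1, a Wnt target, was listed at 0 in all XEN libraries and at 5.73 to 46 FPKM in pluripotent cells. Sfrp1, another secreted antagonist, split the XEN class, with 22.8, 27.5, 0.0582 and 0.0415 FPKM in XEN against 11 to 65.3 FPKM (median 28.6) in pluripotent cells. Its class difference of -2.23 ± 0.84 (SE, adjusted p = 0.0328) was 0.09 when CeXEN alone was compared (adjusted p = 0.903).

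Retinoic acid and hedgehog genes differed in both directions. Of 26 tested retinoic acid and hedgehog genes 4 were separated with XEN higher and 10 with XEN lower, and after quantile normalization 7 and 6. Stra6, the receptor that takes up retinol, stood at 301, 206, 88 and 72.3 FPKM in XEN and 0.357 to 3.01 FPKM (median 1.87) in pluripotent cells. Cyp26a1, which degrades retinoic acid, stood at 152, 146, 5.05 and 8.26 FPKM against 0.119 to 0.955 FPKM (median 0.644), and was not separated against ESC only. Rarg, a retinoic acid receptor, was lower in XEN at 0.12, 0.364, 0.583 and 0.868 FPKM against 22.7 to 103 FPKM (median 48). Stra8, a retinoic acid target known from germ cells, stood at 0, 0.184, 0 and 0 FPKM against 15.1 to 173 FPKM (median 125). Gli2, a transcription factor of hedgehog signalling, stood at 0 to 0.0425 FPKM in XEN and 6.53 to 22.9 FPKM in pluripotent cells.

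Epithelial genes were split between keratins and junctions. Cdh1, E-cadherin, stood at 0.134, 6.26, 0.607 and 0.154 FPKM in XEN and 81.3 to 138 FPKM (median 109) in pluripotent cells, a log2 difference of -5.82 ± 0.38 (SE, adjusted p = 1.6e-08), with CeXEN 2 the highest XEN library. Cldn4, a tight junction protein, stood at 0.187, 1.2, 0.0749 and 0.214 FPKM against 21.7 to 58.7 FPKM (median 32.4). Snai1, the repressor of Cdh1, was higher in XEN at 336, 277, 81.4 and 45.8 FPKM against 0.789 to 5.67 FPKM (median 2.1). The keratins of simple epithelia were higher in XEN. Krt8 stood at 445, 484, 177 and 217 FPKM against 4.31 to 63.6 FPKM (median 20.3). Krt18 stood at 303, 308, 132 and 119.8 FPKM against 3.19 to 69.4 FPKM (median 20.5). Of 38 tested epithelial genes 5 were separated with XEN higher and 13 with XEN lower (median -0.91). Among integrins and matrix receptors 5 of 27 were higher and 8 lower, and 5 and 4 after quantile normalization. Itgav, the alpha V integrin, stood at 49.4, 78, 63.3 and 40 FPKM in XEN against 9.83 to 20.8 FPKM (median 16.5). Gpc6, a surface heparan sulfate proteoglycan, stood at 26.9, 16.9, 27.8 and 30.7 FPKM against 0.172 to 2.26 FPKM (median 0.773). Bcam, a laminin receptor, stood at 0.383, 1.98, 3.2 and 9.53 FPKM against 66.7 to 119 FPKM (median 78.4).

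Genes of DNA methylation and chromatin were more often lower than higher in XEN. Of 23 tested DNA methylation and Tet genes 13 were separated with XEN lower and 2 with XEN higher (median -1.43). Dnmt3l, the cofactor of the de novo methyltransferases, stood at 0.207, 0.101, 0.273 and 0.543 FPKM in XEN and 45.1 to 469 FPKM (median 116) in pluripotent cells, a difference of -6.52 ± 0.43 (SE, adjusted p = 2.1e-08), with CiPSC C3 the highest library. Zfp57, which protects imprints, stood at 4.54, 4.89, 6.32 and 11.7 FPKM against 87 to 186 FPKM (median 152). Dppa3, which guards the maternal genome's methylation, stood at 0, 0, 0.467 and 0.113 FPKM against 7.65 to 49 FPKM (median 24.5). Tet3 was the Tet enzyme higher in XEN, at 5.23, 5.86, 11.4 and 12.2 FPKM against 1.42 to 2.87 FPKM (median 2.33). Tet1 and Tet2 differed by -3.68 ± 0.26 (SE, adjusted p = 3.2e-08) and -3.21 ± 0.26 (SE, adjusted p = 1.42e-07). Of 46 Polycomb and chromatin regulators 17 were separated with XEN lower and 5 with XEN higher (median -0.87). Jarid2, a Polycomb cofactor, stood at 19.8, 17.2, 12.4 and 7.29 FPKM against 60.4 to 123 FPKM (median 95). Kdm5b, a histone demethylase, stood at 8.62, 11.1, 14.2 and 7.78 FPKM against 71.7 to 89.2 FPKM (median 74.8). Hdac1, a histone deacetylase, stood at 58.5, 69.3, 69.2 and 41.6 FPKM against 204 to 279 FPKM (median 258). Smarca2, an ATPase of the SWI/SNF remodelling complex, was higher in XEN, at 67.8, 91.4, 76.4 and 20.7 FPKM against 1.41 to 3.12 FPKM (median 2.12), with eXEN 2 the lowest XEN library and still above the pluripotent range.

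Germ cell genes were separated with XEN lower in 18 of 31 cases and with XEN higher in 0 (median -1.70). Limma called 20 lower and 1 higher, and 1 was higher at an unadjusted p under 0.05. Quantile normalization left 13 lower. Tuba3a, a testis tubulin, stood at 0, 0.0704, 0 and 0 FPKM in XEN and 21.4 to 88.8 FPKM (median 71.2) in pluripotent cells. Rpl10l, a ribosomal protein of meiotic cells, stood at 0.182, 0.338, 0 and 0 FPKM against 17.4 to 79 FPKM (median 64.7). Hormad1, a meiotic chromosome protein, stood at 0 to 0.0571 FPKM against 12.2 to 40.8 FPKM. Of 16 tested genes of the transient state that resembles cells of the 2-cell embryo, 11 were separated with XEN lower and 0 with XEN higher. Limma called 14 lower and 0 higher, with 0 higher at an unadjusted p under 0.05, and quantile normalization left 7 separated as lower. Zscan4f stood at 0 to 0.143 FPKM in XEN and 4.88 to 124 FPKM (median 65.6) in pluripotent cells. Zscan4c stood at 0 to 0.193 FPKM against 3.03 to 86.9 FPKM (median 43.5). The Zscan4 copies are near-identical, so the split of reads among them is uncertain.

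Of 38 tested imprinted genes 5 (13.2%) were separated with XEN higher and 9 (23.7%) with XEN lower. These shares lie not far above the 8.95% and 17.1% of all genes, and the counts were 5 and 7 after quantile normalization. Sfmbt2, a paternally expressed Polycomb protein of extraembryonic tissue, stood at 18.5, 35.5, 37.5 and 22.2 FPKM in XEN and 2.27 to 6.23 FPKM (median 3.89) in pluripotent cells. Gnas, a G protein subunit, stood at 372, 676, 376 and 426 FPKM against 60.7 to 139 FPKM (median 108). Slc38a4, an amino acid transporter, was lower in XEN at 0.059, 7.7, 3.04 and 0.1 FPKM against 65.1 to 110.0 FPKM (median 98.3). Zdbf2 stood at 0.0292 to 0.355 FPKM against 7.61 to 18.2 FPKM.

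Of 45 tested cell cycle and replication genes 13 were separated with XEN lower and 3 with XEN higher (median -0.65), while 29 were not separated, and 28.9% lower stands beside 17.1% of all genes. Median-of-ratios scaling left 9 lower and 4 higher. Mcm2, a subunit of the replicative helicase, stood at 79.3, 77.1, 103 and 75 FPKM in XEN and 185 to 243 FPKM (median 203) in pluripotent cells. Pcna, the polymerase clamp, stood at 120.1, 129, 139 and 98.5 FPKM against 256 to 303 FPKM (median 289). E2f1, the S phase activator, stood at 8.4, 9.25, 10.1 and 11.3 FPKM against 22.7 to 35.5 FPKM (median 28.4). The class gaps of these 3 genes were all under 1 log2 unit. Mybl2, another cell cycle activator, overlapped at 127, 199, 80.9 and 110.0 FPKM against 172 to 334 FPKM (median 272) and became separated after quantile normalization. Ccnd2, a D cyclin, was a large exception, at 66.5, 40.4, 68.2 and 48.5 FPKM in XEN against 0.149 to 4.68 FPKM (median 1.37).

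Genes of the p53 pathway, DNA repair and apoptosis were separated with XEN lower in 18 of 36 cases and with XEN higher in 2 (median -1.03). Trp53 (ENSMUSG00000059552, chr11:69580359-69591873 in mm10) itself stood at 21.8, 29.8, 23.9 and 20 FPKM in XEN and 176 to 265 FPKM (median 210.4) in pluripotent cells, a log2 difference of -3.10 ± 0.13 (SE, adjusted p = 1.95e-10), with an even level in the 4 XEN libraries. Xrcc5, the Ku80 end-joining protein, stood at 15.5, 14.2, 15.5 and 11.1 FPKM against 47.1 to 75.3 FPKM (median 60.7). Casp8, the initiator caspase of death receptors, was higher in XEN at 8.28, 16.6, 8.56 and 7.96 FPKM against 0.438 to 1.89 FPKM (median 0.865). The p53 target Cdkn1a overlapped at 46.5, 29.3, 104 and 92.8 FPKM against 52 to 94.9 FPKM (median 68.7).

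Of 44 tested glycolysis, serine and one-carbon genes 14 were separated with XEN lower and 2 with XEN higher, and 9 and 3 under median-of-ratios scaling. Of 37 mitochondrial genes 12 were lower and 3 higher, and 9 and 4 under that scaling. Of 36 lipid genes 5 (13.9%) were lower and 3 (8.3%) higher, near the 17.1% and 8.95% of all genes, and 5 and 6 under that scaling. Amt, an enzyme of the glycine cleavage system, stood at 0.16, 1.02, 0.69 and 0.542 FPKM in XEN and 41.4 to 83.6 FPKM (median 67.4) in pluripotent cells. Bcat1, a branched-chain amino acid transaminase, stood at 31.7, 12.2, 23.7 and 13.9 FPKM against 138 to 342 FPKM (median 251). Glul, glutamine synthetase, was higher in XEN at 176, 209.8, 133 and 270.3 FPKM against 35.8 to 79.3 FPKM (median 48.2). Gapdh, often used as a reference gene, stood at 1319.6, 1745, 2029.6 and 1475 FPKM in XEN and 2493 to 4255 FPKM (median 2847) in pluripotent cells. Its classes did not overlap, and its difference of -0.92 ± 0.17 (SE, adjusted p = 0.000275) missed the threshold of 1, which it passed after quantile normalization. Among mitochondrial genes Slc25a4, an ADP/ATP carrier, stood at 336, 425, 522 and 323 FPKM in XEN against 116 to 179 FPKM (median 135). Cox7a1, a respiratory chain subunit, was lower in XEN at 0, 0.607, 0.33 and 5 FPKM against 50.2 to 117 FPKM (median 71.4). Chchd10, a protein of the intermembrane space, stood at 17.6, 47.9, 78.5 and 12.8 FPKM against 218 to 599.5 FPKM (median 376).

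Of 25 tested interferon and antigen presentation genes 5 (20.0%) were separated with XEN higher and 5 (20.0%) with XEN lower, beside 8.95% and 17.1% of all genes, and limma called 5 higher and 9 lower. The higher ones included B2m, the light chain of class I molecules, at 187, 207, 171 and 198 FPKM in XEN against 11.6 to 20 FPKM (median 15.9). H2-D1, a class I heavy chain, stood at 114, 139, 116 and 65.7 FPKM against 7.65 to 20.5 FPKM (median 11.1). The lower ones included a pair of antiviral membrane proteins. Ifitm2 stood at 17.2, 37.5, 27.3 and 2.72 FPKM against 268 to 498 FPKM (median 361). Ifitm3 stood at 2.48, 13.8, 0.98 and 2.79 FPKM against 60.7 to 248 FPKM (median 142). H2-D1 is part of a gene family of similar sequence and of strain variants, and the classes differ in strain, so its value is uncertain.

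Markers of other cell types were read in the same 13 libraries. The summed level of the 23 tested fibroblast and feeder genes was 52.2 to 204 FPKM in the XEN libraries and 228 to 549 FPKM in the pluripotent libraries, and 10 further members, among them Dcn and Lum, were below the filter. Of the 23, 2 (8.7%, beside 8.95% of all genes) were separated with XEN higher and 3, a smaller share than the 17.1% of all genes, with XEN lower. The higher ones were a pair of collagen VI chains. Col6a1 stood at 71.7, 29.1, 4.43 and 12.8 FPKM in XEN against 0.0829 to 1.85 FPKM (median 0.458). Col6a2 stood at 40.6, 11.8, 2.71 and 8.78 FPKM against 0.121 to 1.34 FPKM (median 0.52). The lower ones were Fn1, Acta2 and Tagln. Fn1, fibronectin, stood at 57.3, 97.8, 79.6 and 21.5 FPKM in XEN against 128 to 244 FPKM (median 191). It made up a large part of the sum in pluripotent libraries and was not separated against ESC only. Acta2, smooth muscle actin, stood at 0.0952, 0.523, 0.724 and 0.906 FPKM against 2.67 to 138 FPKM (median 26.9). Tagln, a smooth muscle protein, stood at 0.543, 1.46, 0.824 and 0.866 FPKM against 7.4 to 79.6 FPKM (median 25.3). Col1a1, the main fibrillar collagen chain, overlapped at 0.106, 10.1, 0.573 and 0.676 FPKM against 0.97 to 44 FPKM (median 22.5). The sum was lower in every XEN library, while the mean log2(FPKM + 1) of the list overlapped between the classes, from 0.923 to 2.12 in XEN and from 1.19 to 3.18 in pluripotent libraries. The part of these genes in the class differences was not tested. In bulk RNA, fewer cells of a type and less RNA per cell cannot be told apart. The 5 tested macrophage and blood genes summed to 2.66 to 6.74 FPKM in the XEN libraries and 38.1 to 109.7 FPKM in the pluripotent libraries. Of the 5, 1 was separated with XEN higher and 2 with XEN lower. The higher one was Tyrobp, an adaptor protein of myeloid receptors, at 0.81, 2.35, 1.11 and 1.06 FPKM in XEN against 0 to 0.308 FPKM (median 0), which was no longer separated without CeXEN 2. In the pluripotent libraries most of the sum was Laptm5, at 0.186 to 0.771 FPKM in XEN and 31.2 to 98.3 FPKM in pluripotent cells, while 14 of 19 members, among them Ptprc, Lyz2 and Csf1r, were below the filter. The 9 tested neural and mesoderm genes summed to 3.14 to 15.9 FPKM in the XEN libraries and 13.9 to 28.8 FPKM in the pluripotent libraries. Of the 9, 0 were separated with XEN higher and 4 with XEN lower. Limma called 0 higher and 4 lower, and 0 were higher at an unadjusted p under 0.05. Of 14 tested trophoblast genes 0 were separated with XEN higher and 2 (14.3%, near the 17.1% of all genes) with XEN lower. Limma called 0 higher and 4 lower, and 0 were higher at an unadjusted p under 0.05, with Cdx2 and Elf5 below the filter. Esx1, an extraembryonic homeobox gene, overlapped at 45.2, 71.7, 47.6 and 0.0408 FPKM against 2.28 to 34.8 FPKM (median 10.6), eXEN 2 being the lowest library of all and the other 3 XEN libraries the highest. The 12 tested endothelial genes summed to 207 to 375 FPKM in the XEN libraries and 82.5 to 137 FPKM in the pluripotent libraries. Of them 2 (16.7%) were separated with XEN higher and 2 (16.7%) with XEN lower, beside 8.95% and 17.1% of all genes, and 4 and 2 under median-of-ratios scaling. Flt1, a VEGF receptor, stood at 165, 209, 135 and 6.75 FPKM in XEN against 0.304 to 3.86 FPKM (median 0.81). Runx1, a factor of blood formation, stood at 27.5, 22, 16.5 and 13.4 FPKM against 0.189 to 0.717 FPKM (median 0.496). Pecam1, which is also known from pluripotent cells, stood at 0.104, 0.56, 0.0432 and 0.0207 FPKM against 23.5 to 54.4 FPKM (median 33.2). Flt1 and Runx1 were higher in XEN and Pecam1 lower, and Kdr, Emcn, Tal1 and Gata1 were below the filter.

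The 2 sources of XEN cells were not alike. Between CeXEN and eXEN limma called 773 genes higher in CeXEN (5.13% of those tested) and 474 lower (3.14%), and 3711 genes had an unadjusted p under 0.05. After quantile normalization the counts were 553 and 518. The sources differ in line, derivation, medium and Xist level together, and these cannot be told apart. The spread in this fit is pooled over CeXEN, eXEN, ESC and CiPSC, and the CiPSC lines contribute most to it. Its p-values therefore do not measure the spread between XEN libraries alone. Of the 1349 genes separated with XEN higher, 153 (11.3%) were higher and 45 (3.3%) lower in CeXEN than in eXEN, and of the 2571 genes separated with XEN lower 62 (2.4%) were higher and 31 (1.2%) lower. Col4a1, with the values given above, differed by 4.09 ± 0.34 (SE, adjusted p = 1.76e-05) on the log2 scale. Cyp26a1 differed by 4.32 ± 0.29 (SE, adjusted p = 1.95e-06), and Ihh by 2.78 ± 0.37 (SE, adjusted p = 0.000571). Among the genes higher in CeXEN were some for which XEN as a whole was not separated. Epcam, an epithelial adhesion molecule, stood at 167, 133, 9.18 and 1.18 FPKM in XEN and 36.2 to 84 FPKM (median 46.9) in pluripotent cells, with CeXEN above and eXEN below the whole pluripotent range and a difference between the sources of 4.99 ± 0.58 (SE, adjusted p = 0.0002). Peg10, an imprinted gene derived from a retrotransposon, stood at 562, 948, 71.9 and 4.72 FPKM against 12.5 to 89.5 FPKM (median 36.7) and differed between the sources by 5.16 ± 1.13 (SE, adjusted p = 0.012). The status that the quantifier gave Peg10 was not OK in at least 1 of the 13 libraries, so its values are uncertain. Pgc, an aspartic protease precursor, stood at 375, 869.6, 23 and 3.74 FPKM against 1.7 to 5.51 FPKM (median 3.14), with a source difference of 5.74 ± 0.66 (SE, adjusted p = 0.000179). Fabp3, a fatty acid binding protein, stood at 2976, 2412, 452 and 326 FPKM against 215 to 354 FPKM (median 253), with a source difference of 2.80 ± 0.24 (SE, adjusted p = 1.87e-05). In these 4 genes both CeXEN libraries exceeded both eXEN libraries.

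Zfp42, Sox2 and Dppa5a were higher in CeXEN as well. Dppa5a differed between the sources by 1.92 ± 0.49 (SE, adjusted p = 0.0267). Zfp42 differed between the sources by 3.64 ± 0.49 (SE, adjusted p = 0.000571). Sox2, the SOX partner of Pou5f1, stood at 2.25, 16.2, 0.0268 and 0.255 FPKM in XEN and 178 to 241 FPKM (median 196) in pluripotent cells, highest among XEN libraries in CeXEN 2. Its difference between the sources was 2.72 ± 0.52 (SE, adjusted p = 0.00536). In the same 2 CeXEN libraries Pou5f1 was at 0.216 and 0.821 FPKM and Nanog at 0.375 and 0.627 FPKM. Bcam was lower in CeXEN, with a difference of -1.71 ± 0.43 (SE, adjusted p = 0.0244). Cdkn1a was lower too, with a difference of -1.39 ± 0.29 (SE, adjusted p = 0.00864). The number of genes called between the sources was 817 without CeXEN 2 and 2133 without CeXEN 1, in fits that assume the remaining library to vary like the other groups.

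**Figure D4:**
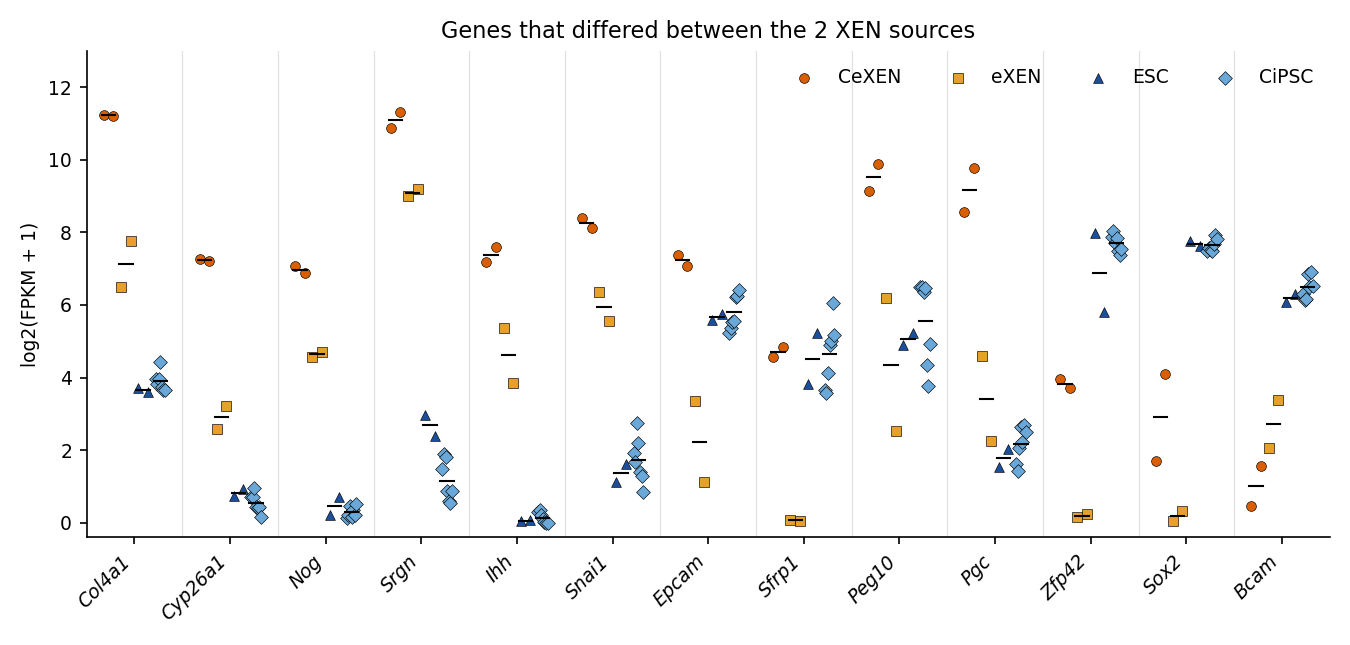
Points are the 13 libraries at log2(FPKM + 1), grouped by source for 13 genes that limma called between CeXEN and eXEN, with a black bar at each group's mean. For Epcam, Sfrp1 and Peg10 the eXEN libraries lie within or below the pluripotent range while both CeXEN libraries are higher than eXEN, and Bcam shows the opposite order of the XEN sources.

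The 2 eXEN libraries, from 1 line in 2 media, can be set side by side without a test, as there is 1 library for each medium. Of the genes described above, Lama1, Sparc, Nid1 and F3 stood higher in the traditional XEN medium (eXEN 2) than in the stage 1 medium (eXEN 1), with Lama1 at 2587 against 921 FPKM, Sparc at 6209.6 against 1512 FPKM, Nid1 at 713 against 50.3 FPKM and F3 at 762 against 85.8 FPKM. Flt1, Esx1 and Smarca2 stood lower, with Flt1 at 6.75 against 135 FPKM, Esx1 at 0.0408 against 47.6 FPKM and Smarca2 at 20.7 against 76.4 FPKM. Col18a1, another basement membrane gene, stood at 0.107 against 2.38 FPKM.

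Within the pluripotent class few genes differed between sources. Between CiPSC and ESC limma called 5 genes higher in CiPSC (0.0332% of those tested) and 3 lower (0.0199%), while 1543 genes had an unadjusted p under 0.05. These 8 genes are named for their small number, after their values were seen. Meg3, Rian and Mirg are noncoding RNAs expressed from the maternal copy of 1 imprinted region. Meg3 stood at 14.1 and 14.1 FPKM in ESC and at 55.5 to 132 FPKM in the 7 CiPSC lines, a log2 difference of 2.59 (adjusted p = 0.00642). Rian stood at 32.4 and 33.4 FPKM in ESC and 148 to 274 FPKM in CiPSC, a difference of 2.50 (adjusted p = 0.000442). Mirg stood at 2.32 and 1.5 FPKM in ESC and 13.4 to 23.7 FPKM in CiPSC, a difference of 2.64 (adjusted p = 0.00074). For all 3, each CiPSC line was above both ESC libraries. The pseudogenes Gm15772 and Vcp-rs were also higher in CiPSC, and the pseudogenes Nanog-ps1 and Gm3715 and the gene Wdfy4 lower. Reads of pseudogenes can be shared with their parent genes, and the 2 ESC libraries differ in strain, so these values are uncertain. None of the 8 genes was separated between XEN and pluripotent cells. Without ESC 1 the number of genes called was 45, without ESC 2 it was 5, and without CeXEN 1 or CeXEN 2, which enter through the shared spread, it was 29.

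The 8 libraries that the comparison did not use were placed on the gap of each separated gene, without a test. Of the 1349 genes higher in XEN, 35.2% and 41.5% stood at or above the nearest XEN library in the 2 fibroblast (MEF) libraries, 60.3% at day 12, 66.2% and 60.6% in the 2 day 16 libraries, 70.6% at day 20, 67.4% at day 26 and 67.8% at day 28. Of the 2571 genes lower in XEN, 61.2% and 60.4% stood at or below the nearest XEN library in MEF, 46.1% at day 12, 52.2% and 42.7% at day 16, 54.4% at day 20, 47.7% at day 26 and 54.1% at day 28. The intermediate cells thus stood on the XEN side for more of the higher genes than fibroblasts did, and for fewer of the lower genes. For the lower genes the share on the pluripotent side was 17.5% and 18.55% in MEF and 14.6% (day 28) to 26.3% (day 12) in intermediates. The share between the classes was 21.3% and 21.1% in MEF and 27.5% (day 12) to 35.3% (day 16, replicate 2) in intermediates. Genes at FPKM 1 or more numbered 12252 and 12789 in MEF and 12943 to 13982 in intermediates, and their part was not tested.

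**Figure D5:**
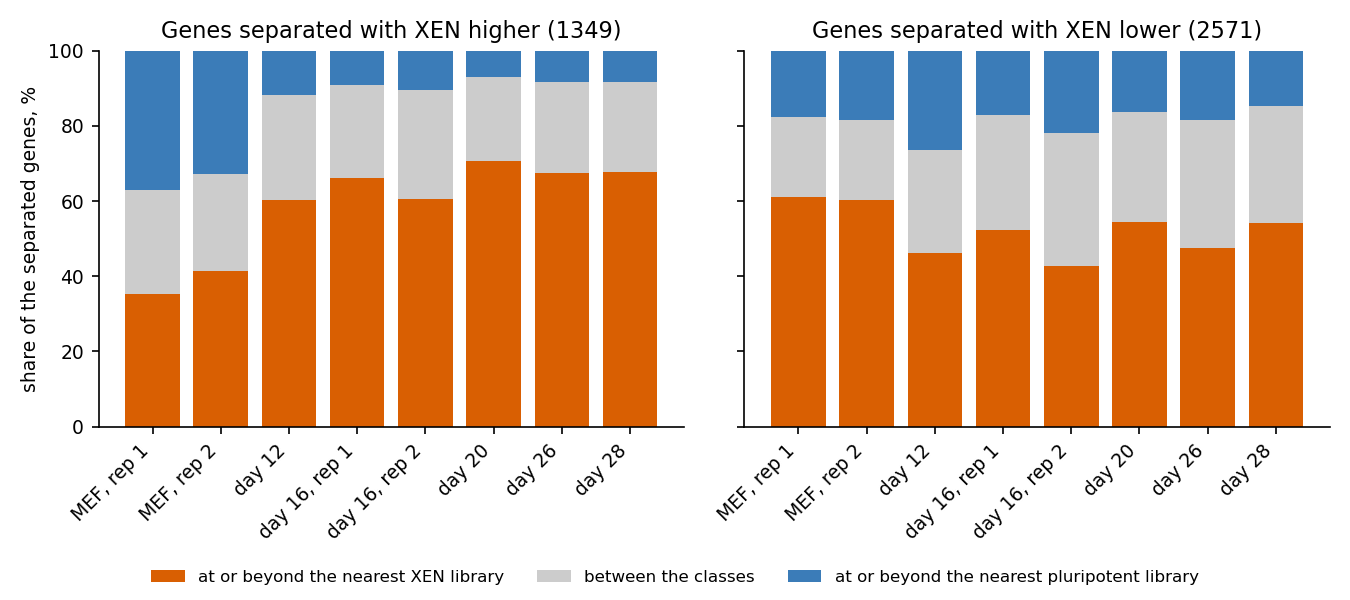
Stacked bars give, for each of the 8 libraries outside the comparison (x axis), the share in percent of the separated genes that lie at or beyond the nearest XEN library, between the classes, or at or beyond the nearest pluripotent library. The left panel covers the 1349 genes higher in XEN, where the orange share is 35.2% to 41.5% in MEF and 60.3% to 70.6% from day 12 on, and the right panel the 2571 genes lower in XEN.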

How the data were processed

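RNA was extracted with the RNeasy Plus Mini Kit and libraries were made with NEBNext Ultra, per the labels' protocols. The authors deposited 1 table of FPKM per library, made with TopHat and Cufflinks on mm10 per the submitters' processing notes, with no version or annotation release given in the sources used here. Each table lists 43496 loci, and 40 gene IDs with several loci were summed to 1 value each. Of the IDs 97.327% were in GENCODE M21, and 27 symbols written as dates were looked up by ID. Groups were taken from the labels. Genes with FPKM of at least 1 in 2 of the 13 libraries were tested with limma 3.58.1 (R 4.3.3, intensity trend, 1 coefficient per class, 11 residual degrees of freedom) on log2(FPKM + 1), with Benjamini-Hochberg adjustment over all 15079 genes. Every adjusted p in the text is from limma, and differences on this scale understate those of low genes. CeXEN with eXEN, and CiPSC with ESC, were compared in a fit with 1 coefficient per group. Whole-library values had an exact permutation test. The code was tested on simulated data. Read counts are not in these tables, so no counting interval is given.

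Genes were named by rule: a set of markers, the 12 separated genes with the widest gap in each direction, and from each of 31 lists up to 3 separated members per direction and up to 2 that were not separated, which gave 224 genes, of which those that carry a result are described. The genes compared and the lists were chosen with earlier results of these data known. Promoter windows and their positions are from RefSeq (GRCm38.p6), with 9948 tested genes matched by symbol. Some named genes are not reported here. Alternatives were another pseudocount, other filters, 2 scalings, other fits, subsets of libraries and genes, and leaving out each library.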

Additional observations from a re-analysis of the deposited data

Results flagged for a closer look

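Single libraries stood apart from the others of their class for 18 of 286 combinations of a class with a named gene or a whole-library value. The rule has a nominal rate of about 5% per combination. The 286 include combinations with no value of 1 FPKM or more, which could not be flagged. Each class also mixes sources, which the nominal rate does not allow for, so the 18 cannot be judged against it. Each was the highest or lowest library, by a gap that is large for the number of libraries. Among XEN libraries, eXEN 2 stood apart for Nid1 (713 FPKM), Flt1 (6.75 FPKM) and Esx1 (0.0408 FPKM). CeXEN 2 stood apart for Tfap2c (2.5 FPKM), Cldn4 (1.2 FPKM) and Casp8 (16.6 FPKM), and CeXEN 1 for Ctsh (67.3 FPKM). Among pluripotent libraries, CiPSC C3 was the highest for Gata6 (3.79 FPKM), Otx2 (17.6 FPKM), P4ha2 (37.9 FPKM), Col6a1 (1.85 FPKM) and Dnmt3l (469 FPKM), and it also has the lowest depth, 0.396 times that of ESC 1. CiPSC G3 was highest for Tfap2c (74.6 FPKM) and CiPSC G1 for Col4a1 (20.7 FPKM). CiPSC N6 was lowest for Slc38a4 (65.1 FPKM) and Psap (111 FPKM), ESC 2 for Zfp42 (54.5 FPKM) and ESC 1 for Col18a1 (31.3 FPKM).

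The distance from the pluripotent libraries differed between the XEN sources for 23 named genes, by limma's test of CeXEN against eXEN. On the log2 scale the difference, CeXEN minus eXEN, was above 4 for Pgc (5.744), Peg10 (5.162), Epcam (4.987), Sfrp1 (4.634), Cyp26a1 (4.325) and Col4a1 (4.088). It was 3.638 for Zfp42, 2.799 for Fabp3, 2.779 for Ihh, 2.748 for Apoe and 2.722 for Sox2. It was 2.433 for Col6a1, 2.332 for Nog, 2.299 for Snai1, 2.009 for Srgn, 1.937 for Col6a2, 1.922 for Dppa5a and 1.629 for Stra6. Kit at 1.388 and Sox17 at 1.283 were the smallest positive ones. Bcam (-1.712), Nid2 (-1.488) and Cdkn1a (-1.389) were lower in CeXEN.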

How the results depend on the processing

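Among the called values of 141 named genes, 1 changed sign in any alternative: the log2 difference of Sfrp1, -2.23 over all libraries, was 0.0883 with CeXEN only (adjusted p = 0.903). Of the 122 separated ones 21 lost separation in some alternative, and 3, Klf5, Bend4 and Tyrobp, when a single library was left out. Taking libraries away cannot make groups overlap that did not overlap before. In those alternatives a separated gene could thus be lost only through the limma rule, so few losses say little about stability. A gap of at least 1 log2 unit kept 478 genes higher and 854 lower, both without overlap and separated. Genes without overlap, XEN higher, numbered 2895 against ESC only and 3032 with CeXEN only, as fewer libraries enter. Leaving out 1 library gave 1314 to 1588 separated genes higher and 2519 to 3005 lower. Genes called between CeXEN and eXEN numbered 817 to 2133 when 1 library was left out, and those between CiPSC and ESC 5 to 45, with 4 at a pseudocount of 0.1 and 8 as reported. The exact permutation p for the number of genes detected was 0.01259 at a threshold of FPKM 5.

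The replicate numbers do not pair the libraries, whose deviations correlated at -0.089 (CeXEN and eXEN), -0.018 (CeXEN and ESC) and -0.055 (eXEN and ESC). Against ESC only, limma called 1272 genes higher and 2710 lower without the replicate block and 1071 and 2443 with it, and 2895 genes were without overlap, XEN higher, in both. Of the named genes, Cyp26a1 and Fn1 were not separated against ESC only, and Zfp42, Klf5, Col4a1 and Col6a2 were not with the replicate block. Protein-coding genes only, an alternative chosen after seeing the data, left 1234 and 2310 separated genes. Depth is known only relative to ESC 1, so a gene listed at 0 may be below detection.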
